A study of Homo sapiens with 8 samples.

Results

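Transcript levels were examined for 9 genes that make up or surround the degradation route of dTAG-13 in Jurkat, a human cell line grown for decades from a T-cell acute lymphoblastic leukaemia (T-ALL). The 9 genes were chosen by name from the 63677 genes listed in the count table, with earlier results of these data known. They are CRBN, DDB1, CUL4A, CUL4B and RBX1, which encode the cereblon ubiquitin ligase; FKBP1A, which encodes FKBP12; and IKZF1, IKZF3 and ZFP91, which encode zinc-finger proteins that cereblon-binding drugs are known to bring to the ligase. The cells in every group, controls included, carried TAL1 fused to FKBP12. The 4 groups were a combination of dTAG-13 and GSI, GSI alone, dTAG-13 alone, and the solvent DMSO, each harvested 24 hours after treatment with 2 libraries. GSI usually stands for a gamma-secretase inhibitor, which stops NOTCH receptors from being cut into their active form. Doses, the number of clones and whether replicates came from separate cultures are not given in the labels, so the p-values reflect the spread between libraries alone, and that spread may be technical.

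Cereblon, encoded by CRBN, is a substrate receptor. It docks on the adaptor DDB1, which hangs from the scaffold CUL4A or CUL4B, and the RING protein RBX1 at the other end of the scaffold recruits the enzyme that carries ubiquitin. A drug bound in the pocket of cereblon can offer a new surface, and a protein that is ubiquitinated only through such a drug is called a neosubstrate. dTAG-13 holds an FKBP12 ligand and a cereblon ligand on 1 molecule, so that a protein fused to the mutant FKBP12 tag is brought to cereblon and degraded by the proteasome. IKZF1 (Ikaros) and IKZF3 (Aiolos) are DNA-binding factors of lymphoid cells and the best known neosubstrates of thalidomide analogues. All of these events are at the level of protein, which RNA sequencing does not measure.

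The zinc fingers through which the 3 neosubstrates are known to meet drug-bound cereblon are shown because they are the feature the 3 genes share. A Cys2-His2 finger of this kind carries a glycine directly after its second cysteine, in the turn that cereblon contacts. The coding stretches below run 5′ to 3′ from the codon of the first cysteine to that of the last histidine, and capitals mark the codons of the 2 cysteines and of the glycine.

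IKZF1, codons 147 to 167: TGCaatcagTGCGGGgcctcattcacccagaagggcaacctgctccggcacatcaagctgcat

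IKZF3, codons 148 to 168: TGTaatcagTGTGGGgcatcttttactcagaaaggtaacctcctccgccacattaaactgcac

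ZFP91, codons 402 to 422: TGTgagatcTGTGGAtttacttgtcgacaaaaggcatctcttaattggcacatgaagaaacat

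The sequences are those of GENCODE 29 transcripts on GRCh38. The IKZF1 finger lies within exon 5 of the 8 exons of its transcript, at chr7:50382557-50382619 on the plus strand. The IKZF3 finger lies within exon 5 of 8, at chr17:39791504-39791566 on the minus strand, and the ZFP91 finger within exon 11 of 11, at chr11:58617197-58617259 on the plus strand. Of the 63 bases of the IKZF1 finger, 50 were the same in IKZF3 and 30 in ZFP91. Fingers with this glycine numbered 4 in IKZF1, 3 in IKZF3 and 2 in ZFP91. Those from codon 119 of IKZF1 and codon 120 of IKZF3 each had 25 bases the same as the IKZF1 finger shown. Across the whole coding sequence IKZF1 and IKZF3 were identical at 65.6% of aligned bases, with a longest shared run of 26 bases. CUL4A and CUL4B were identical at 73.8%, with a longest shared run of 23 bases. The reads were 100 bases long, and at that length FKBP1A shared windows with FKBP1C, a near copy with 20 to 45 counts per library beside 13221 to 16353 for FKBP1A. ZFP91 shared windows with the read-through gene ZFP91-CNTF, which had 0 to 6 counts. CRBN shared transcript windows with its neighbour TRNT1, CUL4A with PCID2 and DDB1 with TKFC, so their counts are less certain if the counting did not use strand, which is not given in the sources used here.

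Total counts ran from 17544319 to 22180009 per library, and the 9 genes together held 0.200% to 0.219% of them. All 9 genes were among the 15646 expressed highly enough to be tested. The T-ALL identity was visible in 10 T-cell and T-ALL markers, which summed to 2888 to 3418 CPM (counts scaled to library size) in the 8 libraries. The 9 myeloid markers summed to 0.384 to 0.657 CPM, the 9 epithelial and stromal ones to 1.82 to 4.10 CPM and the 7 erythroid ones to 0.0932 to 0.469 CPM. In such bulk samples fewer cells of a type and less RNA per cell cannot be told apart.

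The ligase genes and FKBP1A were expressed in every library, whereas IKZF3 was close to the limit of detection. Per kilobase of the principal transcript, FKBP1A had the highest mean level over the 8 libraries, 446 CPM per kb, followed by DDB1 at 121 and IKZF1 at 61.4 CPM per kb. The RING subunit RBX1 had a mean level of 43.6 CPM per kb and the scaffold CUL4A 42.8 CPM per kb. ZFP91 averaged 26.5, CRBN 23.9 and CUL4B 22.5 CPM per kb. IKZF3 averaged 0.0555 CPM per kb. RBX1 and CUL4A overlapped in their ranges, and so did ZFP91, CRBN and CUL4B, so the order within these groups is not set by the libraries. The order also moves with the length used: over the union of all annotated exons ZFP91, at 26.5 CPM per kb, stood above RBX1 at 16.8 and CUL4A at 12.9, and CUL4B at 10.4 above CRBN at 6.53.

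**Figure D1:**
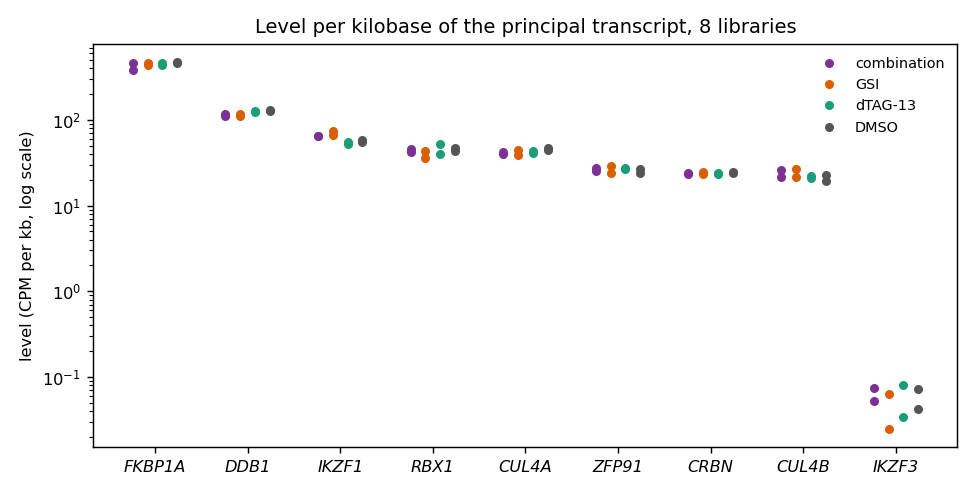
Level per kilobase of the principal transcript (CPM per kb, log axis) of the 9 genes, ordered by their mean, with 1 point per library and colours for the 4 groups. FKBP1A lies highest, with a mean of 446 CPM per kb, and IKZF3 lies lowest at 0.0555 CPM per kb.

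CRBN, the receptor that both thalidomide analogues and dTAG-13 occupy, varied least of the 9 genes. It had 52.1 and 52.6 CPM in the combination libraries, 51.2 and 54.1 CPM in the GSI libraries, 51.5 and 52.8 CPM in the dTAG-13 libraries, and 54.5 and 52.8 CPM in the DMSO libraries. Both combination libraries lay just below both DMSO libraries, all other pairs of groups overlapped, and the coefficient of variation over the 8 libraries was 2.21%. With the combination against DMSO, 4 of the 9 genes (CRBN, DDB1, CUL4A and IKZF1) and 42.1% of all genes tested had ranges of 2 libraries each that did not overlap. With the effect of dTAG-13 averaged over cells with and without GSI, the fold change of CRBN was 0.983 with a 95% interval of 0.9003 to 1.07. With the effect of GSI averaged over cells with and without dTAG-13, the fold change was 0.993 with an interval of 0.909 to 1.08. These intervals, like all those given here, are not adjusted for the number of genes.

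DDB1, the adaptor on which cereblon sits, was lower in each library with GSI than in each library without it. It had 505 and 531 CPM in the combination libraries, 526 and 503 CPM in the GSI libraries, 575 and 565 CPM in the dTAG-13 libraries, and 573 and 593 CPM in the DMSO libraries. The 4 libraries with GSI lay between 503 and 531 CPM and the 4 without it between 565 and 593 CPM, so the ranges did not overlap. Of all genes tested, 15.2% had ranges that did not overlap in this split, as did 2 of the 9 genes, DDB1 and IKZF1. The log2 fold change of DDB1 with GSI averaged over dTAG-13 was -0.16 (SE 0.06, interval -0.29 to -0.03), which did not pass in edgeR's quasi-likelihood test (Benjamini-Hochberg adjusted p = 0.127).

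The scaffolds CUL4A and CUL4B, paralogues that can each carry cereblon, did not pass the test in any comparison. CUL4A had 95.2 and 98.7 CPM in the combination libraries, 104 and 92.4 CPM in the GSI libraries, 98.5 and 103 CPM in the dTAG-13 libraries, and 106 and 111 CPM in the DMSO libraries. Its lowest value in DMSO was above its highest in each of the other groups. Ranges did not overlap with those of DMSO in 42.1% of all genes tested for the combination, 43.5% for GSI and 35.3% for dTAG-13. The log2 fold change of CUL4A was -0.16 with the combination (SE 0.09, adjusted p = 0.472), -0.15 with GSI (SE 0.09, adjusted p = 0.489) and -0.11 with dTAG-13 (SE 0.09, adjusted p = 0.9996), each against the same DMSO libraries, in edgeR's test.

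CUL4B had 84.4 and 69.6 CPM in the combination libraries, 86.3 and 70.7 CPM in the GSI libraries, 71.8 and 67.6 CPM in the dTAG-13 libraries, and 63.5 and 73.5 CPM in the DMSO libraries. Replicates of the combination and of GSI differed from each other by more than their group means differed from that of DMSO, and the ranges overlapped. With GSI averaged over dTAG-13, the log2 fold change of CUL4B was 0.17 (SE 0.09, interval -0.02 to 0.35, edgeR adjusted p = 0.272). Per kilobase of the principal transcript, CUL4A stood above CUL4B in all 8 libraries, by a ratio of 1.56 and 1.96 in the combination libraries, 1.67 and 1.80 in the GSI libraries, 1.89 and 2.11 in the dTAG-13 libraries, and 2.31 and 2.09 in the DMSO libraries. The size of this ratio depends on the lengths used, 2364 bases for CUL4A and 3264 for CUL4B. Over the union of all annotated exons the means were closer, at 12.9 CPM per kb for CUL4A and 10.4 for CUL4B. The ratios in the combination and in GSI all lay below those in DMSO. Those in GSI also lay below those in dTAG-13, whereas those of the combination and dTAG-13 overlapped. Such gaps are common between 2 libraries each: for levels of single genes, 42.1% of all genes tested did not overlap with the combination against DMSO. With GSI against DMSO it was 43.5%.

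RBX1, the RING subunit, had 49.99 and 53.7 CPM in the combination libraries, 42.2 and 51.3 CPM in the GSI libraries, 47.8 and 61.7 CPM in the dTAG-13 libraries, and 56.4 and 51.7 CPM in the DMSO libraries. Both GSI libraries lay below both DMSO libraries, all other pairs of groups overlapped, and the widest gap was between the replicates of dTAG-13. With GSI against DMSO, 4 of the 9 genes (DDB1, CUL4A, RBX1 and IKZF1) and 43.5% of all genes tested had ranges that did not overlap. Its log2 fold change was 0.08 with dTAG-13 averaged over GSI (SE 0.09, edgeR adjusted p = 0.999) and -0.14 with GSI averaged over dTAG-13 (SE 0.09, edgeR adjusted p = 0.392).

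FKBP1A encodes FKBP12, the peptidyl-prolyl isomerase bound by FK506 and rapamycin, from which the tag of the fusion derives. It had 622 and 757 CPM in the combination libraries, 703 and 746 CPM in the GSI libraries, 710 and 745 CPM in the dTAG-13 libraries, and 764 and 742 CPM in the DMSO libraries. Replicate 1 of the combination was the lowest of all, and the other 7 libraries lay between 703 and 764 CPM. The log2 fold change with the combination against DMSO was -0.13 (SE 0.10, edgeR adjusted p = 0.681) with both combination libraries, 0.01 without combination replicate 1 and -0.28 without combination replicate 2. Averaged over GSI, the fold change of FKBP1A with dTAG-13 was 0.959 (interval 0.860 to 1.07). Whether reads from the tag of the TAL1 fusion were counted as FKBP1A is not given in the sources used here, and these values may hold both transcripts.

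**Figure D2:**
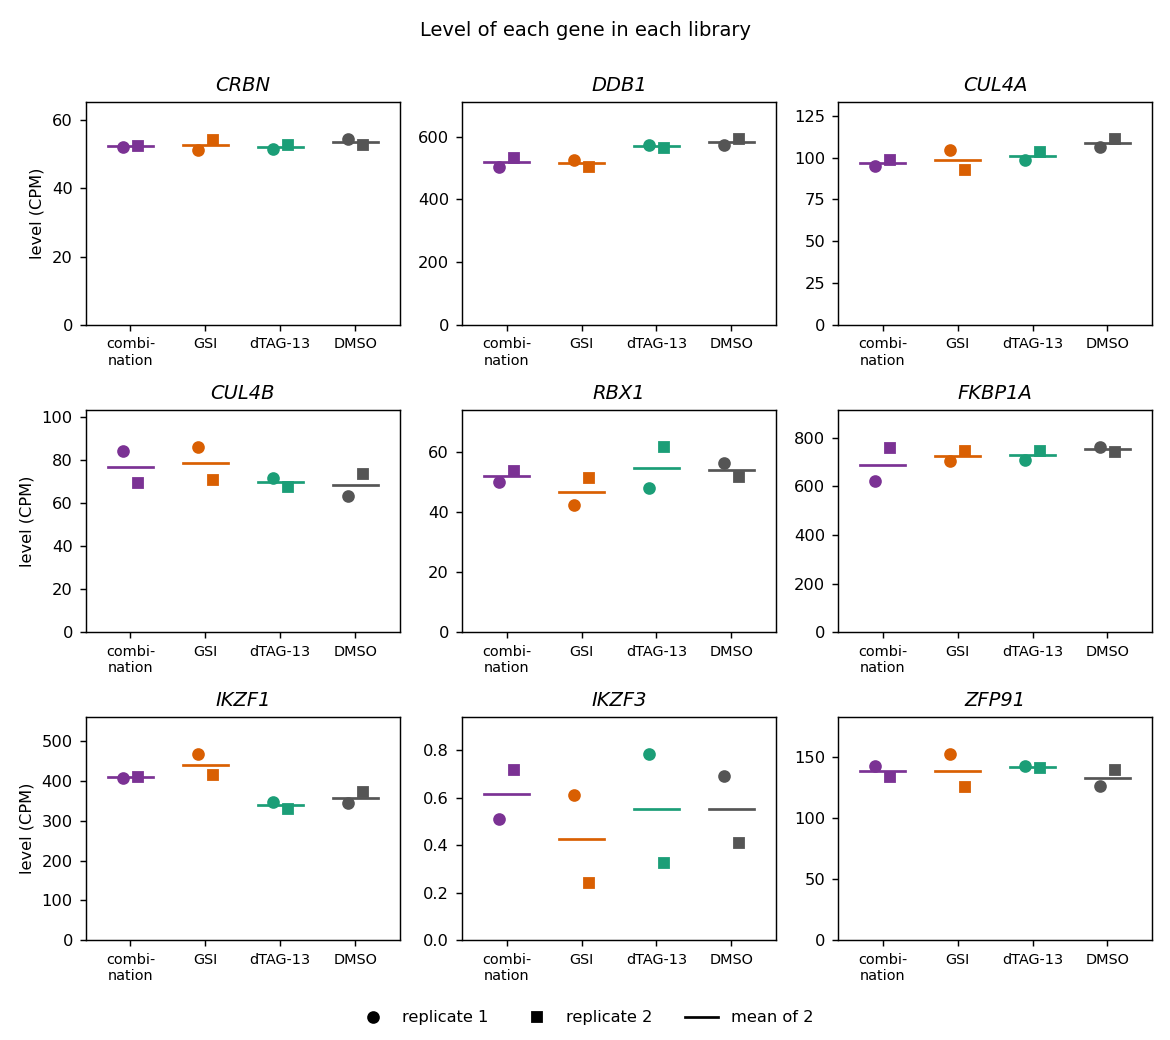
Level (CPM, axes from 0) of each of the 9 genes in each library, with circles for replicate 1, squares for replicate 2 and a line for the mean of 2, for the combination, GSI, dTAG-13 and DMSO. CRBN stays between 51.2 and 54.5 CPM, IKZF1 is above 409 CPM in the 4 libraries with GSI and at most 372 CPM in the others, and FKBP1A in combination replicate 1 is at 622 CPM.

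IKZF1, the gene of Ikaros, rose with GSI, and it was the only one of the 9 that passed the test in any of the 8 comparisons. It had 409 and 411 CPM in the combination libraries, 467 and 415 CPM in the GSI libraries, 349 and 329 CPM in the dTAG-13 libraries, and 344 and 372 CPM in the DMSO libraries. Each of the 4 libraries with GSI was above each of the 4 without it, and GSI replicate 1 was the highest. With GSI averaged over dTAG-13, IKZF1 was 1.22-fold higher (interval 1.11 to 1.34; log2 fold change 0.29, SE 0.06, adjusted p = 0.0176 in edgeR's quasi-likelihood test over all genes). In this comparison 1 of the 9 genes was called, and 6.94% of all tested genes were.

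In single comparisons the change of IKZF1 did not pass the threshold of 0.05. Its log2 fold change was 0.30 with GSI against DMSO (SE 0.09, edgeR adjusted p = 0.130), 0.19 with the combination against DMSO (SE 0.09, edgeR adjusted p = 0.395) and 0.27 with the combination against dTAG-13 (SE 0.09, edgeR adjusted p = 0.206). In the authors' deposited table of GSI against DMSO, the log2 fold change of IKZF1 was 0.29, with an adjusted p of 0.208. The effect of dTAG-13 on IKZF1 averaged over GSI was -0.09 on the log2 scale (SE 0.06, interval -0.23 to 0.04, edgeR adjusted p = 0.999). The averaged call depended on the libraries: leaving out DMSO replicate 1, DMSO replicate 2, dTAG-13 replicate 1, dTAG-13 replicate 2 or GSI replicate 1 made it miss the threshold, and over all 8 such fits the log2 fold change was 0.24 to 0.33 and the adjusted p 0.00885 to 0.118.

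B-cell markers also differed between libraries with and without GSI. The 7 markers summed to 94.1 to 99.6 CPM in the combination libraries, 90.4 to 110 CPM in the GSI libraries, 67.5 to 70.4 CPM in the dTAG-13 libraries and 61.0 to 71.6 CPM in the DMSO libraries. Nearly all of the sum was CD79A, at 60.3 to 109 CPM. PAX5 was at most 0.0461 CPM and MS4A1 at most 0.192 CPM, and the part of these transcripts in the rise of IKZF1 was not tested. The 10 T-cell and T-ALL markers summed to 2888 to 3186 CPM in the combination libraries, 2993 to 3296 CPM in the GSI libraries, 3179 to 3368 CPM in the dTAG-13 libraries and 3291 to 3418 CPM in the DMSO libraries.

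IKZF3, the gene of Aiolos, had 5 to 17 counts per library. Its level was 0.512 and 0.719 CPM in the combination libraries, 0.610 and 0.241 CPM in the GSI libraries, 0.783 and 0.326 CPM in the dTAG-13 libraries, and 0.693 and 0.409 CPM in the DMSO libraries. All groups overlapped, and with dTAG-13 averaged over GSI the fold change was 1.22 with an interval of 0.659 to 2.24, so that changes within these bounds were not detectable at this depth. Per kilobase, the level of IKZF1 was 683 to 2641 times that of IKZF3 in single libraries, a ratio whose spread follows the few IKZF3 counts.

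ZFP91, a zinc-finger ubiquitin ligase that is itself a neosubstrate, had 143 and 134 CPM in the combination libraries, 153 and 126 CPM in the GSI libraries, 143 and 141 CPM in the dTAG-13 libraries, and 126 and 140 CPM in the DMSO libraries. Both dTAG-13 libraries lay above both DMSO libraries, all other pairs of groups overlapped, and both the highest and the lowest value belonged to GSI. With dTAG-13 against DMSO, 2 of the 9 genes, ZFP91 and CUL4A, and 35.3% of all genes tested had ranges that did not overlap, and the log2 fold change of ZFP91 was 0.09 (SE 0.10, edgeR adjusted p = 0.9996). Its log2 fold change was 0.04 with dTAG-13 averaged over GSI (SE 0.07, interval -0.11 to 0.20) and 0.01 with GSI averaged over dTAG-13 (SE 0.07, interval -0.14 to 0.17).

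The first question of the design is what dTAG-13 changed. None of the 9 genes passed edgeR's test with dTAG-13 against DMSO, where 0.0192% of all genes did, and 0 had an unadjusted p under 0.05, beside 3.84% of all genes. The same held with the combination against GSI, where 0.0575% of all genes passed, and with dTAG-13 averaged over GSI, where 0.499% did. DESeq2's Wald test also called 0 of the 9 in each of these comparisons. No gene of the 9 had ranges that did not overlap between the 4 libraries with and the 4 without dTAG-13, against 2.63% of all genes. For the 8 genes other than IKZF3, the averaged log2 fold changes lay between -0.09 and 0.08, and their intervals together reached 0.853-fold at the low end and 1.21-fold at the high end.

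The second question is what GSI changed. None of the 9 passed with GSI against DMSO, where 1.74% of all genes did, or with the combination against dTAG-13, where 1.21% did. At an unadjusted p under 0.05 there were 2 of the 9 in the comparison with DMSO, IKZF1 and DDB1, beside 2197 of all 15646 genes, and 1, IKZF1, in that with dTAG-13, beside 2037. DESeq2's Wald test also called 0 of the 9 in both. The median log2 fold change of the 9 genes with GSI averaged over dTAG-13 was -0.07, beside 0.01 over all genes tested, with 3 of the 9 values above 0. The combination against DMSO called 0 of the 9 and 1.31% of all genes, with 1 of the 9, IKZF1, and 12.4% of all genes at an unadjusted p under 0.05, and DESeq2 called 0 of the 9.

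The third question is whether the combination departed from what adding the 2 single log2 effects gives. edgeR called 0 of the 9 genes and 0% of all genes, with 0 of the 9 and 260 of all genes at an unadjusted p under 0.05, and DESeq2 also called 0 genes. For IKZF1 the departure was -0.03 (SE 0.13, interval -0.30 to 0.25). For CRBN it was 0.03 (SE 0.12, interval -0.22 to 0.29).

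**Figure D3:**
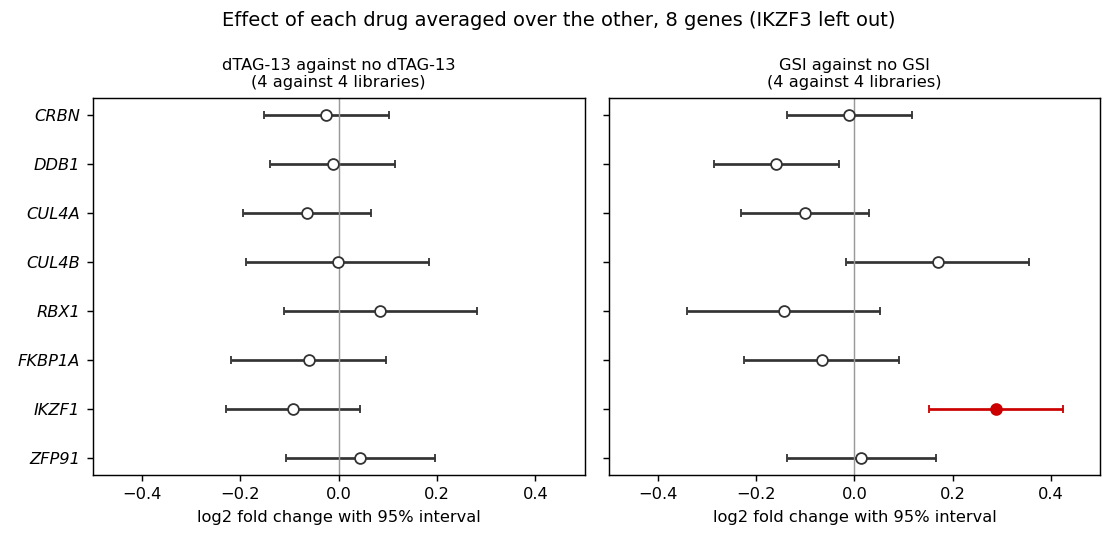
Log2 fold change with its 95% interval of 8 genes for each drug averaged over the other, as 4 libraries with the drug against 4 without it; IKZF3 is left out because its intervals are several times wider. Only IKZF1 with GSI, at 0.29, is filled red for an adjusted p below 0.05, and the interval of DDB1 with GSI, at -0.16, also lies below 0.

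Over the 4 groups, 23 of the 27 pairs of neighbours in the order of group means overlapped. The share that did not overlap was 14.8% for the 9 genes and 22.6% for all genes tested. The 4 pairs that did not were GSI above the combination and the combination above DMSO for IKZF1, dTAG-13 above the combination for DDB1, and DMSO above dTAG-13 for CUL4A. Pearson correlations of log2 CPM over the same 8 libraries describe how alike the genes moved, and the libraries share treatments and replicate numbers. The 9 genes did not move as 1 unit. DDB1 and CUL4A had an r of 0.79, CUL4B and IKZF1 0.73, DDB1 and IKZF1 -0.74, and CRBN and ZFP91 -0.92, the last over a range of CRBN of only 51.2 to 54.5 CPM.

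Among the 10242 tested genes whose mean level reached 5 CPM, those most like IKZF1 were NFATC2, which encodes a calcium-regulated transcription factor of T cells (r = 0.99, rho = 0.98), and CELF2, which encodes an RNA-binding splicing factor (r = 0.99, rho = 0.95). Those most like DDB1 were HEATR1 and UTP20, which encode factors of ribosome biogenesis (r = 0.995 and 0.994). With IKZF1, 262 genes had an r above 0.9, and with DDB1 228 did. CRBN, whose level barely varied, had 10 such genes, C1orf85 (r = 0.96) and C19orf66 (r = 0.95) being the closest. Those closest to CUL4A were BMP2K (0.97) and NPR2 (0.96), to CUL4B SEC62 (0.99) and ALDH6A1 (0.98), to RBX1 TMEM70 and NOP10 (0.97 each), and to FKBP1A C12orf5 and NLE1 (0.97 each). For FKBP1A the rank correlation rho was lower, at 0.62 with C12orf5 and 0.83 with NLE1. The part of its 1 low library, combination replicate 1 at 622 CPM, in these r values was not tested. The genes most like ZFP91 were AEBP2 (0.98) and EML4 (0.97), and those most like IKZF3 were SIMC1 (0.96) and SLC30A1 (0.90). The pattern of IKZF3 rests on 5 to 17 counts per library, and only 1 gene had an r above 0.9 with it, beside 14 for CUL4A. All of these genes were picked as the highest of 10242 correlations over 8 libraries, so a high r alone says little.

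Genes with a part in assembling and charging cullin ligases in general were set beside the subunits of the cereblon ligase. Of 24 partner and assembly genes tested, 1 rose and 1 fell with GSI averaged over dTAG-13, where 6.94% of all genes were called. In edgeR's test 6 of the 24 had an unadjusted p under 0.05, beside 21.9% of all genes. Ranges of libraries with and without GSI did not overlap in 15.2% of all genes tested. UBE2F, which encodes a conjugating enzyme of the ubiquitin-like modifier NEDD8, had 44.4 and 37.2 CPM in the combination libraries, 42.0 and 43.2 CPM in the GSI libraries, 29.5 and 28.0 CPM in the dTAG-13 libraries, and 28.6 and 27.6 CPM in the DMSO libraries. The libraries with GSI did not overlap with those without it, and the averaged log2 fold change was 0.55 (SE 0.07, edgeR adjusted p = 0.000823), called in 8 of 8 fits that left out a library. UBE2M, which encodes another conjugating enzyme of NEDD8, was at -0.06 in this comparison (SE 0.08, edgeR adjusted p = 0.740). Which of these enzymes acts on the cereblon ligase was not tested. UBE2F was also called with GSI against DMSO (0.60, SE 0.10, edgeR adjusted p = 0.0129), the combination against DMSO (0.54, SE 0.10, edgeR adjusted p = 0.0269) and the combination against dTAG-13 (0.50, SE 0.10, edgeR adjusted p = 0.0360).

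These single calls of UBE2F rested on few libraries. They held in 2 of 4, 1 of 4 and 1 of 4 fits that left out a library, and the last also missed the threshold with the compared libraries alone (edgeR adjusted p = 0.110). The one that fell was DCUN1D5, which encodes a factor that promotes cullin neddylation. It had 54.9 and 63.1 CPM in the combination libraries, 52.5 and 59.8 CPM in the GSI libraries, 74.6 and 83.2 CPM in the dTAG-13 libraries, and 74.2 and 76.3 CPM in the DMSO libraries. Its averaged log2 fold change was -0.42 (SE 0.07, edgeR adjusted p = 0.00402), called in 8 of 8 such fits. In edgeR's test of dTAG-13 averaged over GSI, 0 of the 24 passed and 0 had an unadjusted p under 0.05, beside 6.08% of all genes. The one with the largest change relative to its error was COPS2, a subunit of the COP9 signalosome that removes NEDD8 (0.11, SE 0.06, edgeR adjusted p = 0.889).

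None of the 23 other substrate receptors of CUL4 ligases and none of the 5 other cullins passed in any of the 8 comparisons in edgeR's test. At an unadjusted p under 0.05 there were 3 and 1 of them with GSI averaged over dTAG-13 and 0 with dTAG-13 averaged over GSI. Of all genes tested, 21.9% and 6.08% had such a p in the same comparisons, in that order. With GSI averaged over dTAG-13 their median log2 fold changes were 0.03 and -0.10, and the values with the largest change relative to their error were 0.18 for DCAF5 (SE 0.06, edgeR adjusted p = 0.114) and -0.13 for CUL1 (SE 0.06, edgeR adjusted p = 0.215). For dTAG-13 averaged over GSI they were -0.11 for VPRBP, the receptor hijacked by lentiviral Vpr (SE 0.06, edgeR adjusted p = 0.928), and 0.06 for CUL3 (SE 0.06, edgeR adjusted p = 0.999). Of 36 listed genes of the proteasome and the VCP unfoldase, 35 were tested and 0 passed in any comparison in edgeR's test, with 3 and 0 at an unadjusted p under 0.05 in the averaged comparisons of GSI and dTAG-13. Their median was -0.09 with GSI averaged over dTAG-13, with 3 of 35 values above 0, and 0.01 with dTAG-13 averaged over GSI. PSMA6, a subunit of the proteasome core, led the list in both, at -0.18 with GSI (SE 0.06, edgeR adjusted p = 0.108) and 0.11 with dTAG-13 (SE 0.06, edgeR adjusted p = 0.971).

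Of the 16 other FKBP immunophilins, 14 were tested, and 2 fell with GSI averaged over dTAG-13. In this comparison 6.94% of all genes tested were called in either direction. FKBP4, which encodes the HSP90 co-chaperone FKBP52, had 325 and 413 CPM in the combination libraries, 345 and 395 CPM in the GSI libraries, 480 and 496 CPM in the dTAG-13 libraries, and 499 and 483 CPM in the DMSO libraries. FKBP11, which encodes an endoplasmic reticulum member, had 21.0 and 22.1 CPM in the combination libraries, 17.1 and 21.6 CPM in the GSI libraries, 28.9 and 28.8 CPM in the dTAG-13 libraries, and 25.5 and 29.5 CPM in the DMSO libraries. In both genes each library with GSI was below each library without it, and 15.2% of all genes tested did not overlap in this split. The averaged log2 fold change was -0.41 for FKBP4 (SE 0.08, edgeR adjusted p = 0.00960) and -0.47 for FKBP11 (SE 0.09, edgeR adjusted p = 0.00784).

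FKBP4 was lost without DMSO replicate 1 or DMSO replicate 2 (highest adjusted p 0.0642), and FKBP11 without DMSO replicate 2 (0.0683). FKBP1A itself had an averaged log2 fold change of -0.07 with GSI (SE 0.07, edgeR adjusted p = 0.652). No FKBP gene passed edgeR's test with dTAG-13 averaged over GSI, and 0 had an unadjusted p under 0.05, beside 6.08% of all genes. The leading one was FKBP5, encoding FKBP51 (0.13, SE 0.07, edgeR adjusted p = 0.928).

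Among the other Ikaros family genes, IKZF2 and IKZF5 were tested and neither passed edgeR's test, whereas IKZF4 had at most 7 counts. IKZF2, the gene of Helios, had a log2 fold change of 0.40 with GSI averaged over dTAG-13 (SE 0.12, interval 0.14 to 0.66, edgeR adjusted p = 0.0691), beside 0.29 for IKZF1. IKZF5 led the pair with dTAG-13 averaged over GSI at 0.08 (SE 0.07, edgeR adjusted p = 0.999).

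Of 22 other proteins reported as cereblon neosubstrates, the genes of 18 were tested. With dTAG-13 averaged over GSI, where 0.499% of all genes tested were called, 1 of the 18 rose. This was ZNF692, which encodes a zinc-finger protein. It had 68.9 and 67.6 CPM in the combination libraries, 49.98 and 56.4 CPM in the GSI libraries, 71.3 and 76.5 CPM in the dTAG-13 libraries, and 59.5 and 55.1 CPM in the DMSO libraries. Each library with dTAG-13 was above each library without it, and 2.63% of all genes tested did not overlap in this split. The averaged log2 fold change of ZNF692 was 0.36 (SE 0.06, edgeR adjusted p = 0.0317). The call held in 2 of 8 fits that left out a library, with adjusted p between 0.0195 and 0.279, and was lost without either library of DMSO, of dTAG-13, GSI replicate 1 or combination replicate 1.

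GSPT1, which encodes the translation termination factor eRF3a and is the target of another class of cereblon-binding drugs, fell with GSI averaged over dTAG-13. It had 253 and 279 CPM in the combination libraries, 268 and 263 CPM in the GSI libraries, 316 and 321 CPM in the dTAG-13 libraries, and 310 and 314 CPM in the DMSO libraries. In this comparison 1 of the 18 genes and 6.94% of all genes tested were called. Ranges of libraries with and without GSI did not overlap in 15.2% of all genes. For GSPT1 the libraries with GSI lay below all of the others, with a log2 fold change of -0.25 (SE 0.06, edgeR adjusted p = 0.0224). It was called in 3 of 8 fits that left out a library, with adjusted p between 0.0107 and 0.125, and lost without either library of DMSO, of dTAG-13 or combination replicate 1.

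The last list holds 5 transcripts reported to respond to loss of IKZF1 or IKZF3, of which 3 were expressed highly enough to be tested. All 3 were called higher with GSI averaged over dTAG-13, where 6.94% of all genes tested were called in either direction. IKZF1 itself rose in the same comparison. The list was chosen with earlier results of these data known, and a link of these transcripts to IKZF1 was not tested. DNTT, which encodes terminal deoxynucleotidyl transferase and is known from mouse lymphocytes as a gene that Ikaros represses, had 167 and 148 CPM in the combination libraries, 143 and 137 CPM in the GSI libraries, 133 and 131 CPM in the dTAG-13 libraries, and 110 and 106 CPM in the DMSO libraries. No neighbouring groups overlapped for DNTT, and of single neighbouring pairs over all genes tested 22.6% did not. Its averaged log2 fold change with GSI was 0.31 (SE 0.06, edgeR adjusted p = 0.00742), lost without DMSO replicate 2 or dTAG-13 replicate 2. The effect of dTAG-13 on DNTT averaged over GSI was 0.23 (SE 0.06, edgeR adjusted p = 0.189).

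DNTT was also called with the combination against DMSO (0.54, SE 0.08, edgeR adjusted p = 0.00596), which was lost without either DMSO library. Its call with GSI against DMSO (0.37, SE 0.08, edgeR adjusted p = 0.0452) was lost in each of 4 fits that left out a library, and with the compared libraries alone. IGLL1 and VPREB1 encode the surrogate light chain of the pre-B cell receptor. IGLL1 had 229 and 270 CPM in the combination libraries, 248 and 367 CPM in the GSI libraries, 157 and 203 CPM in the dTAG-13 libraries, and 203 and 181 CPM in the DMSO libraries. Its averaged log2 fold change with GSI was 0.57 (SE 0.12, edgeR adjusted p = 0.0128), lost without DMSO replicate 1, DMSO replicate 2 or dTAG-13 replicate 1.

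VPREB1 was low in all libraries, at 1.26 and 2.21 CPM in the combination libraries, 2.06 and 1.45 CPM in the GSI libraries, 0.691 and 0.699 CPM in the dTAG-13 libraries, and 0.924 and 0.454 CPM in the DMSO libraries. The libraries with GSI were above all of the others, and 15.2% of all genes tested did not overlap in this split. The averaged log2 fold change was 1.35 (SE 0.29, edgeR adjusted p = 0.0161), lost without GSI replicate 1, DMSO replicate 2 or dTAG-13 replicate 2. Both genes belong to the B lineage, whose marker sums differed in the same split as given above. IL2 had at most 2 counts and IRF4 at most 6.

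**Figure D4:**
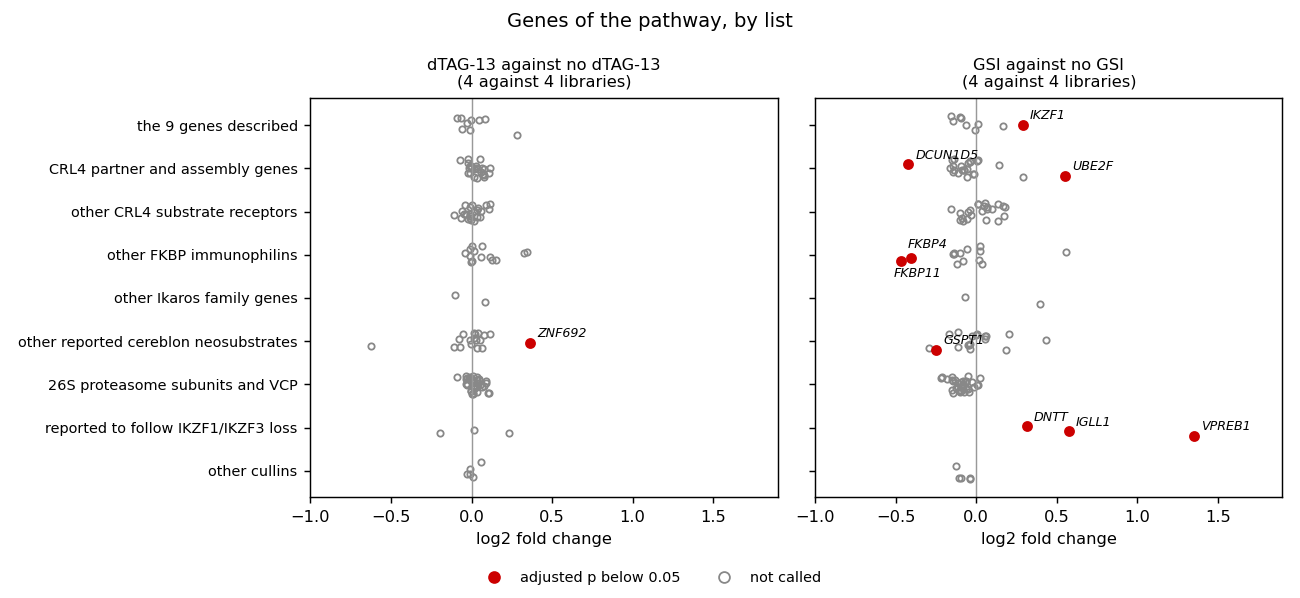
Log2 fold change of the 9 genes and of each list of related genes for each drug averaged over the other, with 1 point per tested gene, height within a list being only spread, and filled red points with names for an adjusted p below 0.05. With dTAG-13 the one red point is ZNF692 at 0.36, and with GSI the red points are IKZF1 and 8 of the related genes, with VPREB1 at 1.35 farthest to the right.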

How the data were processed

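Whole-number counts for each gene in each library were deposited by the authors; the libraries were paired-end and kept strand. STAR 2.5.2a, featureCounts, DESeq2 1.12.4 and hg19 were used, per the submitters' processing notes; the annotation is not given in the sources used here. There is also a deposited table for each drug arm set against DMSO, in which the mean signal (normalised count), the log2 fold change with its error, the score (fold change over error) and the p-values are the authors'.

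Genes were filtered with filterByExpr (minimum count 10), scaled by TMM and fitted in 1 model of the 4 groups over 8 libraries with edgeR 4.0.16 in R 4.3.3 (robust quasi-likelihood, 4 residual degrees of freedom). The 8 comparisons used 2-sided F-tests, adjusted by Benjamini-Hochberg over 15646 genes, threshold 0.05. CPM use the TMM factors, SE is the log2 fold change over the root of F, and intervals are at 95%. The test was checked on simulated data, where the intervals of the most strongly raised genes covered the true change less often than their stated level. Alternatives included DESeq2 1.42.0. Depth, 17544319 to 22180009 counts, and 2 libraries per group limit the precision; replicates differed beyond sampling noise, with a chi-square over its degrees of freedom of 4.62 to 13.9.

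The 9 genes and all lists were chosen with earlier results of these data known. Named are all 9 genes, up to 3 called genes per list and direction, otherwise for the averaged comparisons the leading gene by change over error, and the 2 genes most alike in pattern. Levels per kb use the APPRIS principal transcript of GENCODE 29, a length settled after seeing values. Coordinates of the fingers were read from GENCODE 29 on GRCh38; no coordinate comes from the count table. Protein sequences were not used here.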

Additional observations from a re-analysis of the deposited data

How the results depend on the processing

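The number of the 9 genes called was the same in all 8 comparisons with DESeq2's size factors, DESeq2's Wald test and the compared libraries alone (run for the 5 comparisons of single groups). No filter on low counts called 1 with GSI against DMSO (IKZF1, adjusted p 0.0446) in place of 0. Leaving out a library gave 0 to 1 with GSI averaged over dTAG-13 and 0 in the other 7. The replicate block gave 1 with GSI averaged over dTAG-13 (IKZF1) and 0 elsewhere, and changed no call of the 9. Replicate numbers are not stated to pair the libraries: deviations of same-numbered libraries correlated at 0.516 to 0.587 among dTAG-13, GSI and the combination but at -0.379 to -0.145 between these and DMSO. A block with the DMSO numbers crossed, chosen after seeing the data, called 1 with GSI against DMSO, 1 with the combination against dTAG-13 and 3 with GSI averaged over dTAG-13.

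Of 801 values of single genes under alternatives, 745 stayed within 1 SE or kept their call, 46 moved by more than 1 SE, 5 lost and 5 gained a call, and 0 called values reversed; 72 uncalled values changed sign. Those that moved were mostly of RBX1 (11), CUL4B (10) and FKBP1A (9); the cause was not tested. Over all genes, calls with GSI averaged over dTAG-13 numbered 1086, against 1815 without the filter, 1822 with the block, 3221 with the crossed block and 342 to 1524 with a library left out. With dTAG-13 averaged over GSI they numbered 78, against 165, 135, 283 and 14 to 78 in the same order. The combination against DMSO gave 205, against 532, 413, 1191 and 38 to 258, and the combination against dTAG-13 gave 189, against 563, 476, 1434 and 43 to 264, with 96 from the compared libraries alone. GSI against DMSO gave 272, against 660, 559, 1581 and 32 to 232. The combination against GSI gave 9, against 59, 34, 103 and 6 to 7, with 3 from the compared libraries alone and 23 by DESeq2's Wald test, and dTAG-13 against DMSO gave 3, against 51, 23, 94 and 0 to 2, with 71 and 24. The departure from additivity gave 0, and 1 without DMSO replicate 1.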
